A study of Mus musculus with 55 samples.

Results

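Ntrk2 encodes TrkB, a receptor tyrosine kinase, and is 1 of the 34490 gene symbols that were counted in both batches of this mouse liver RNA-seq series. It was chosen by its measured counts in livers that lacked Rnf43 and Znrf3 and had been damaged with carbon tetrachloride (CCl4), set against those of their controls. Its levels in damaged livers are therefore a description, with no test. Undamaged livers were not those for which it was chosen and were tested, although earlier results of these data were known.

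TrkB binds brain-derived neurotrophic factor (BDNF) and neurotrophin-4 and is best known from the nervous system, where it promotes survival and growth of neurons. Bound receptors pair, phosphorylate each other and pass the signal through adaptors to the ERK, PI3K and phospholipase C gamma pathways, while alternative splicing also makes TrkB forms that lack the kinase. Rnf43 and Znrf3 are membrane ubiquitin ligases that remove Frizzled receptors from the cell surface and thereby restrain WNT signalling, which in liver sets the expression of genes around the central vein.

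The series compared livers of C57BL/6 mice carrying floxed Rnf43 and Znrf3 alleles in which the genes were deleted in hepatocytes (R&Zdel) with livers of unrecombined mice of the same alleles (R&Zflox). Adult mice were recombined by tamoxifen, through a Cre-ERT2 driven by the albumin promoter, or by an AAV8 virus carrying Cre under the hepatocyte TBG promoter. Controls received vehicle or a null virus. The excised exons encode the RING domains alone. Undamaged livers were taken 1, 3 or 7 months after deletion (1M, 3M, 7M). Chronically damaged (CD) livers were taken 4, 50 or 170 days after the last of repeated CCl4 injections, with tamoxifen given again so that unrecombined hepatocytes would not expand. Livers after partial hepatectomy (PHx), the surgical removal of part of the liver, were taken 7 or 21 days later. The study describes tumours and nodules in mutant livers of the CD regimen. The labels list chronic damage for both genotypes of the CD groups. The study's text, however, states in one place that control littermates went through the same regimen and in another that they received corn oil alone, and if they received oil, genotype and CCl4 cannot be told apart in the CD comparisons.

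Of 53 SMARTSEQ2 libraries, 48 had a group: 18 in the first batch (undamaged 3M and 7M and all CD livers, induced by tamoxifen) and 30 in the second (undamaged 1M, 3M and 7M and PHx livers, induced by virus except for the 7M livers, which had tamoxifen). Levels are given as CPM, the counts of a gene per 1000000 counts of its library. Total counts ran from 11721687 to 38692089 per library, so that 1 CPM rested on more than 10 counts. The 7 hepatocyte markers, among them Alb and Hnf4a, had a lower sum in R&Zdel than in R&Zflox livers at each CD time, and none was at 0. At CD 4d the sums were 72627 to 88949 against 91486 to 94683 CPM. At CD 50d they were 74194 to 100600 CPM against 101290 CPM in a single control liver, and at CD 170d 63989 to 66400 against 74841 to 114310 CPM. Whole-gene counts of Rnf43 and Znrf3 do not check the deletion, since transcripts of the remaining exons are still counted; Znrf3 was higher in R&Zdel at CD 4d (log2 fold change 1.91 ± 0.22, SE; adjusted p = 0.00155, edgeR quasi-likelihood test with Benjamini-Hochberg adjustment). Xist and Ddx3y matched the listed sex in all but 1 of the libraries that list one, R&Zflox PHx 7d replicate 3, which is listed as male but had Xist at 375 CPM and no Ddx3y count. In 2 first-batch libraries, R&Zdel 3M replicate 1 and R&Zflox 7M replicate 2, the title disagrees with the characteristics, by which they were placed. The other 5 first-batch libraries were placed in no group because their age or damage differs between title and characteristics. Listed as controls among them were 2 libraries with Ntrk2 at 14.7 and 58.8 CPM, above the lowest grouped R&Zdel library of the batch (14.1 CPM), and the first of these is a CD 50d control by its title and an undamaged one by its characteristics. These 2 libraries also had more of the WNT targets Glul and Axin2 than any grouped R&Zflox library of the batch. Both are female by Xist (58.0 and 19.6 CPM) and Ddx3y (0.0258 and 0.0370 CPM), whereas 1 grouped R&Zflox library of the batch is. The part of sex in their levels was not tested. Every statement on R&Zdel and R&Zflox livers is therefore one on the 48 libraries with a group.

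Ntrk2 lies on chromosome 13 of mm10, at chr13:58806472-59133970 on the plus strand. The gene model used for counting joins 22 exon blocks that add up to 35504 bases, with 15065 in the longest block. A predicted gene on the opposite strand, Gm53063, lies within an intron, shares no exonic base with Ntrk2 and had at most 4 counts in any first-batch library. Because the counts are per gene, the kinase-bearing and the truncated forms of TrkB cannot be told apart.

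The promoter is shown because WNT target genes are compared with Ntrk2 after its own values. RefSeq's window of 300 bases around the transcription start, at chr13:58806319-58806618 on the plus strand of GRCm38.p6 (mm10), holds 61.3% G and C and 23 CpG:
Ntrk2: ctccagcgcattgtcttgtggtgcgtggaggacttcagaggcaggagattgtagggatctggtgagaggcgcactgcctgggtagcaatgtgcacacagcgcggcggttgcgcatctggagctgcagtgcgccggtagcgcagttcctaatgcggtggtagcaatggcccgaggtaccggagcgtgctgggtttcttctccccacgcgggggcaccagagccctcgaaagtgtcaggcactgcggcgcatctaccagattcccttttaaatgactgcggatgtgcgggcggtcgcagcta
The core of the motif bound by TCF factors, which carry the WNT signal in the nucleus, was searched on both strands as CTTTGA. It was not found in this window, whereas 16% of 32851 promoter windows hold it, and nothing follows from that about binding of the factor elsewhere.

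In chronically damaged liver Ntrk2 was high in each of the 6 R&Zdel libraries and low in each of the 5 R&Zflox libraries placed in a group. At 4 days after the last injection, the R&Zdel livers had 17.7 and 21.3 CPM and the R&Zflox livers 0.966 and 1.42 CPM. The means, 19.5 ± 2.52 CPM (SD, n = 2) and 1.19 ± 0.323 CPM (SD, n = 2), stood in a ratio of 16.4, and the fitted log2 fold change was 3.54 ± 0.67 (SE). The groups did not overlap.

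After 50 days of recovery, the R&Zdel livers had 16.7 and 20.3 CPM, close to the 4d livers. The single R&Zflox library had 0.240 CPM, from 6 counts (95% Poisson interval 0.0880 to 0.522 CPM; such intervals cover counting error only). The log2 fold change was 5.99 ± 1.13, but the size of this difference rests on 1 control liver, and the ungrouped library with the title of a second one had 14.7 CPM. By its characteristics that library is an undamaged control. Its Glul and Axin2, 2 WNT targets given under the flagged results, were above those of the grouped control liver (163 and 2.16 CPM).

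After 170 days, the R&Zdel livers had 16.1 and 34.0 CPM, and the R&Zflox livers 0.102 CPM (3 counts) and 1.33 CPM. Again no control liver reached the lower of the mutant livers. The log2 fold change was 4.99 ± 0.73, which became 7.69 without R&Zflox CD 170d replicate 2, the control liver with 1.33 CPM. Over the 3 recovery times, the 6 R&Zdel livers ran from 16.1 to 34.0 CPM with a median of 19.02, and the 5 R&Zflox livers from 0.102 to 1.42 CPM with a median of 0.966. In bulk tissue, a change in the number of cells that carry a transcript and a change in the transcript per cell cannot be told apart.

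**Figure D1:**
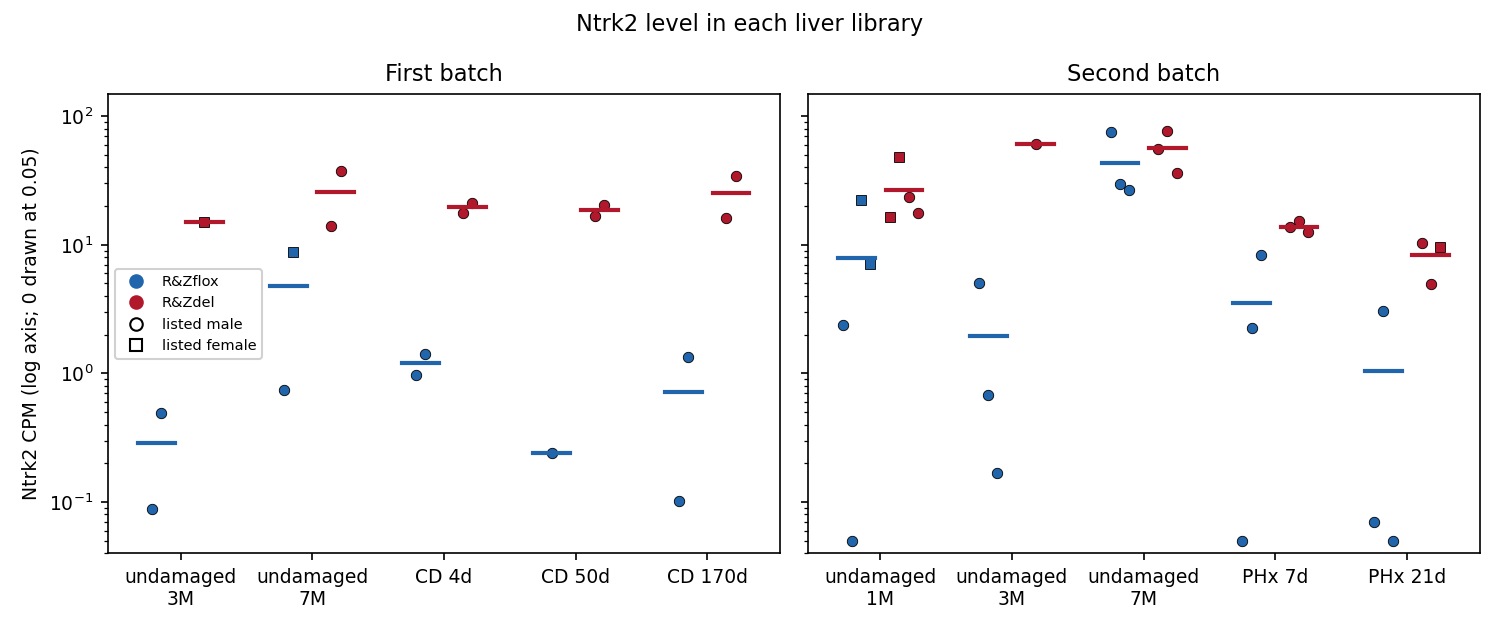
Ntrk2 level (CPM, log axis, with 0 drawn at 0.05) in each of the 48 libraries with a group, by condition within each batch. Blue points are R&Zflox and red points R&Zdel livers, circles are listed males and squares listed females, and short lines are group means; the 9 red points of the first batch lie at 14.1 to 37.2 CPM, above all 9 blue points, whereas in the second batch the blue 7M points reach 74.8 CPM.

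Ntrk2 was as high in undamaged mutant liver of the same batch. The 3 undamaged R&Zdel livers had 15.1 CPM at 3M and 14.1 and 37.2 CPM at 7M, a range that holds all of the CD livers' values. Between CD 170d and undamaged 7M, the log2 fold change within R&Zdel was -0.065 ± 0.83. The high mutant level was thus measured with and without damage. In all, the 9 R&Zdel libraries of the first batch had at least 14.1 CPM and the 9 R&Zflox libraries at most 8.84 CPM.

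In R&Zflox liver, Ntrk2 stood at 0.0882 and 0.489 CPM at 3M and at 0.741 and 8.84 CPM at 7M. The highest of these, R&Zflox 7M replicate 2, was the only female R&Zflox library of the batch and one of those with conflicting labels; its title names it a CD 170d liver. Under its title it would have been the highest R&Zflox CD library, still below the lowest R&Zdel CD library at 16.1 CPM. The log2 fold change of CD 170d against 7M within R&Zflox was -2.50 ± 1.02 with that library and -0.038 ± 1.09 without it, and it was -5.20 without R&Zflox CD 170d replicate 2.

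In order of mean level, the first-batch groups ran from R&Zdel 7M (25.6 ± 16.4 CPM) and R&Zdel CD 170d (25.1 ± 12.7 CPM) over R&Zdel CD 4d, CD 50d and 3M down to R&Zflox 7M (4.79 ± 5.72 CPM), CD 4d, CD 170d (0.717 ± 0.869 CPM), 3M (0.289 ± 0.284 CPM) and CD 50d. The first 4 groups overlapped with their neighbours in this order, and so did all R&Zflox groups. The gap without overlap that divided the genotypes lay between 14.1 and 8.84 CPM.

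Undamaged livers were tested because Ntrk2 was chosen for its level in damaged livers. Earlier results of these data were known at the choice, so full independence of these tests from it is not assured. The undamaged libraries of both batches were fitted together with sex and batch as terms, and the p-values measure the spread between separate livers. At 1M, in the second batch, the 4 R&Zdel livers had 16.4, 48.2, 23.4 and 17.7 CPM and the 4 R&Zflox livers 2.39, 0, 22.2 and 7.14 CPM. One female control, at 22.2 CPM, lay above 2 of the mutant livers, and the control without a count allows up to 0.121 CPM (3 counts). The log2 fold change was 2.13 ± 1.03 and did not pass (adjusted p = 0.643, edgeR quasi-likelihood test with Benjamini-Hochberg adjustment over 12848 genes).

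At 3M the groups did not overlap in either batch. The first-batch R&Zdel liver, a female whose title and characteristics disagree, had 15.1 CPM, and its male R&Zflox controls had 0.0882 and 0.489 CPM. Genotype and sex cannot be told apart between these livers. The second-batch R&Zdel liver had 60.7 CPM and its controls 5.01, 0.683 and 0.167 CPM. The fitted log2 difference was 4.49 ± 1.12 with an adjusted p of 0.182 by the same edgeR test. It passed the threshold of 0.1 without R&Zflox 3M replicate 3 of the second batch (5.69, adjusted p = 0.0954, edgeR) and under DESeq2 (4.46, adjusted p = 0.0726), so the call depends on the setting. Within batches it was 2.17 ± 1.22 (first, adjusted p = 0.956) and 4.85 ± 1.40 (second, adjusted p = 0.325) by the edgeR test, with 1 mutant liver in each.

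At 7M the batches differed. In the first batch the R&Zdel livers (14.1 and 37.2 CPM) lay above the R&Zflox livers (0.741 and 8.84 CPM). In the second batch the 3 R&Zdel livers had 56.0, 77.1 and 36.3 CPM, and the 3 R&Zflox livers had 74.8, 29.5 and 26.4 CPM. These control livers overlapped with the mutants and were higher than every other R&Zflox library of the series. The pooled log2 fold change was 1.82 ± 0.94 (adjusted p = 0.597), from 5.01 ± 0.91 (adjusted p = 0.201) with first-batch livers alone and 0.46 ± 1.05 (adjusted p = 0.973) with second-batch livers alone, all by the edgeR quasi-likelihood test. A test of the difference between these batch effects gave 3.95 ± 1.81 on the log2 scale (unadjusted p = 0.0409 and adjusted p = 1, edgeR), and was chosen after the values were seen.

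**Figure D2:**
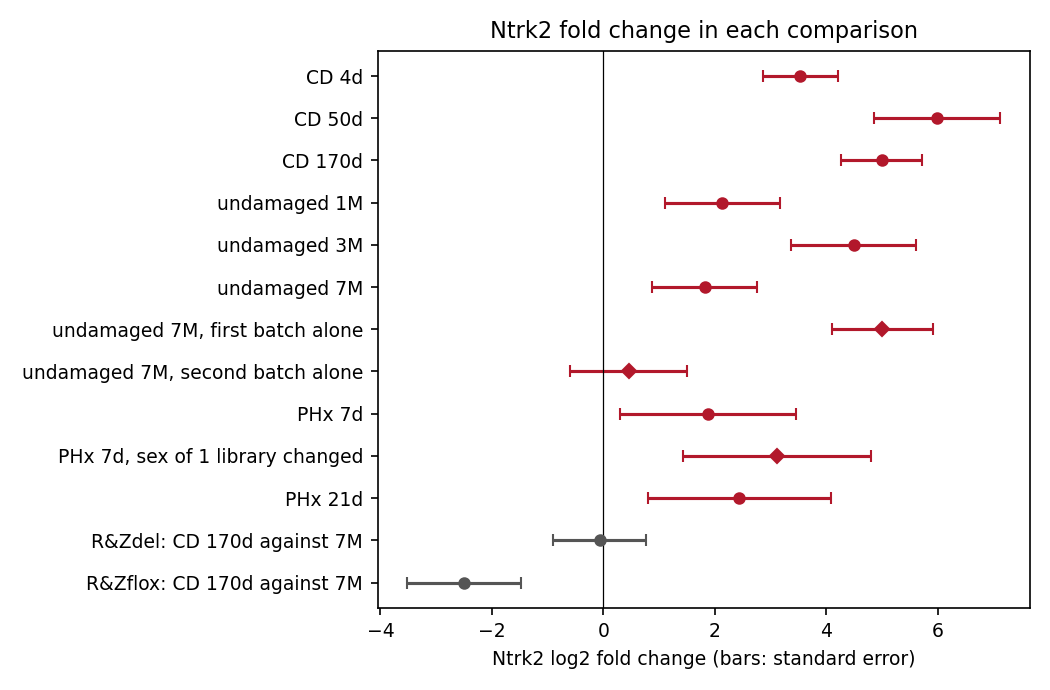
Fitted log2 fold change of Ntrk2 (points) with its standard error (bars) in each comparison. Red points are R&Zdel against R&Zflox, diamonds are fits in 1 batch or with the sex of 1 library changed, and grey points compare CD 170d with undamaged 7M within a genotype; the 7M estimate was 5.01 for first-batch livers and 0.46 for second-batch livers.

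Glul, the glutamine synthetase of pericentral hepatocytes and a WNT target, was not at the mutant level in these 3 control livers. It had 159, 87.4 and 64.4 CPM there, against 1121, 309 and 1096 CPM in the R&Zdel livers of the same age and batch. Axin2, another WNT target, overlapped between these groups, at 0.919, 1.59 and 7.68 CPM in the control livers and 3.63, 32.8 and 46.0 CPM in the mutant livers. Within the second batch, R&Zflox livers at 7M were higher in Ntrk2 than at 3M (log2 fold change 4.25 ± 1.20, adjusted p = 0.0920 by the edgeR test, in a comparison added after the values were seen in which 2.16% of genes were called). Between the R&Zflox 7M livers of the second and the first batch it was 4.99 ± 1.55 and did not pass (adjusted p = 0.181, edgeR), where 1.71% of genes were called. Within the second batch the 7M livers had tamoxifen and the 3M livers virus, so age and induction cannot be told apart.

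Female control livers were the higher ones at 1M (22.2 and 7.14 against 2.39 and 0 CPM) and at 7M in the first batch (8.84 against 0.741 CPM). A comparison of the sexes added for this reason gave a log2 fold change, female against male, of 2.95 ± 1.41 within undamaged R&Zflox livers (adjusted p = 0.748) and of 0.18 ± 0.54 within undamaged R&Zdel livers (adjusted p = 1), both by the edgeR test, and so did not pass; 0.895% and 0.418% of genes were called in these comparisons. All CD livers with a group were male.

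After partial hepatectomy Ntrk2 was higher in each mutant liver than in any control of the same time. At 7 days the R&Zdel livers had 13.7, 15.2 and 12.6 CPM and the R&Zflox livers 0, 2.24 and 8.34 CPM, with 0 counts allowing up to 0.183 CPM. The means were 13.8 ± 1.31 and 3.53 ± 4.31 CPM (SD, n = 3 each). The control at 8.34 CPM was the library whose Xist level disagrees with its listed sex. R&Zdel against R&Zflox gave a log2 fold change of 1.88 ± 1.59 as listed, 3.12 ± 1.69 with that library entered as female and 3.55 without it.

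At 21 days after hepatectomy the R&Zdel livers had 10.3, 4.99 and 9.64 CPM and the R&Zflox livers 0.0701, 3.05 and 0 CPM, the last allowing up to 0.170 CPM. The groups did not overlap. Here the log2 fold change was 2.44 ± 1.64, and 7.25 without R&Zflox PHx 21d replicate 2, the control at 3.05 CPM. The 6 mutant livers after hepatectomy, at 4.99 to 15.2 CPM, were lower than the 8 undamaged mutant livers of their batch, at 16.4 to 77.1 CPM. Over the whole second batch, 7 of the 16 R&Zflox libraries were at or above the lowest of the 14 R&Zdel libraries.

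Among all genes of the fits, ordered by log2 fold change of R&Zdel against R&Zflox, Ntrk2 stood at position 108 of 11358 at CD 4d, at 8 at CD 50d and at 2 at CD 170d. A gene was called if its log2 fold change exceeded 1 in size with an adjusted p below 0.1, and the number of such genes fell over the same times from 1727 to 634 and to 71. Ntrk2 stayed among the genes with the highest fold changes as the number of called genes fell. Among 30 receptor tyrosine kinases tested it had the second position at CD 4d, behind the collagen receptor Ddr1 (3.97 ± 0.72), and the first at CD 50d and CD 170d, where the next were Ddr1 at 2.60 and the lymphatic VEGF receptor Flt4 at 1.20. These positions use the values for which Ntrk2 was chosen.

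At CD 4d, 15.2% of all genes were called. Of the 29 other receptor tyrosine kinases tested, 7 were higher and 2 lower, among them Erbb2 (log2 fold change 2.82), Fgfr3 (2.58), Ror1 (2.43) and Igf1r (2.09). Their median log2 fold change was 0.26, beside 0.057 over all genes. At CD 50d and CD 170d none of the 29 was called by the edgeR test, in comparisons in which 5.58% and 0.625% of genes were called. There 5 and 2 of them had an unadjusted p under 0.05, and DESeq2 called 1 at each time.

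Ntrk3, the receptor of neurotrophin-3, was near the limit of detection. It was at most 1.21 CPM in the first batch, reached in an R&Zdel CD 4d liver, and had no count in 23 of the 30 second-batch libraries. It did not pass the filter on low counts in any fit. Per kilobase of gene model, the scale on which genes can be compared, the median of the 6 R&Zdel CD livers was 0.536 CPM per kb for Ntrk2 and 0.0208 for Ntrk3. The 15065-base block weighs on the Ntrk2 value.

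The p75 receptor Ngfr, which binds all neurotrophins and marks hepatic stellate cells, had 0.531 to 2.20 CPM in R&Zdel and 0.747 to 1.89 CPM in R&Zflox CD livers. Pooled over the 3 recovery times these ranges overlapped, as did the groups at the last of these times. Within each of the earlier times the groups did not overlap, and R&Zdel was the lower. Ngfr had 0.618 and 1.44 CPM in R&Zdel against 1.53 and 1.73 CPM in R&Zflox livers at CD 4d. At CD 50d it had 1.16 and 1.67 CPM against 1.72 CPM in the single control liver. Its log2 fold changes of -1.16 ± 0.69, -0.55 ± 0.82 and -0.14 ± 0.68, in order of time, did not pass. On the per-kilobase scale its median in R&Zdel CD livers was 0.382 CPM per kb, below that of Ntrk2.

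Bdnf, the main TrkB ligand, was not called by edgeR at any CD time, whereas DESeq2 called it at CD 50d and CD 170d. It had 3.24 and 2.53 CPM in R&Zdel against 2.36 and 1.59 CPM in R&Zflox livers at CD 4d (log2 fold change 0.059 ± 0.40). At CD 50d it had 0.988 and 1.67 against 3.12 CPM (-1.50 ± 0.48, adjusted p = 0.114, edgeR). At CD 170d it had 0.858 and 1.26 against 4.17 and 2.88 CPM, a log2 fold change of -1.94 ± 0.42 that did not pass (adjusted p = 0.127, edgeR quasi-likelihood test) although the groups did not overlap. Ntf5, which encodes neurotrophin-4, was detected at 1.34 and 1.84 CPM in R&Zdel CD 4d livers and at 0.215 and 1.25 CPM in R&Zdel CD 50d livers, against at most 0.135 CPM in any R&Zflox CD liver. It was too low for the fits, and had no count in the 30 libraries of the second batch.

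Sortilin (Sort1), the co-receptor with which p75 binds uncleaved neurotrophins, rose at CD 4d and at CD 50d by the edgeR test. At CD 50d the control was a single liver, taken to vary as the other groups did. It had 29.1 and 39.9 CPM in R&Zdel against 8.42 and 12.5 CPM in R&Zflox livers at CD 4d (log2 fold change 1.23 ± 0.28, adjusted p = 0.0188, edgeR), and 18.3 and 37.2 against 6.48 CPM at CD 50d (1.80 ± 0.37, adjusted p = 0.0563, edgeR). At CD 170d the values were 7.00 and 9.42 against 7.16 and 6.91 CPM. The CD 4d call was lost without R&Zdel replicate 2 (1.09, adjusted p = 0.102, edgeR) or R&Zflox replicate 1 (0.99, adjusted p = 0.141, edgeR), and the CD 50d call without R&Zdel replicate 1 (2.15, adjusted p = 0.110, edgeR).

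**Figure D3:**
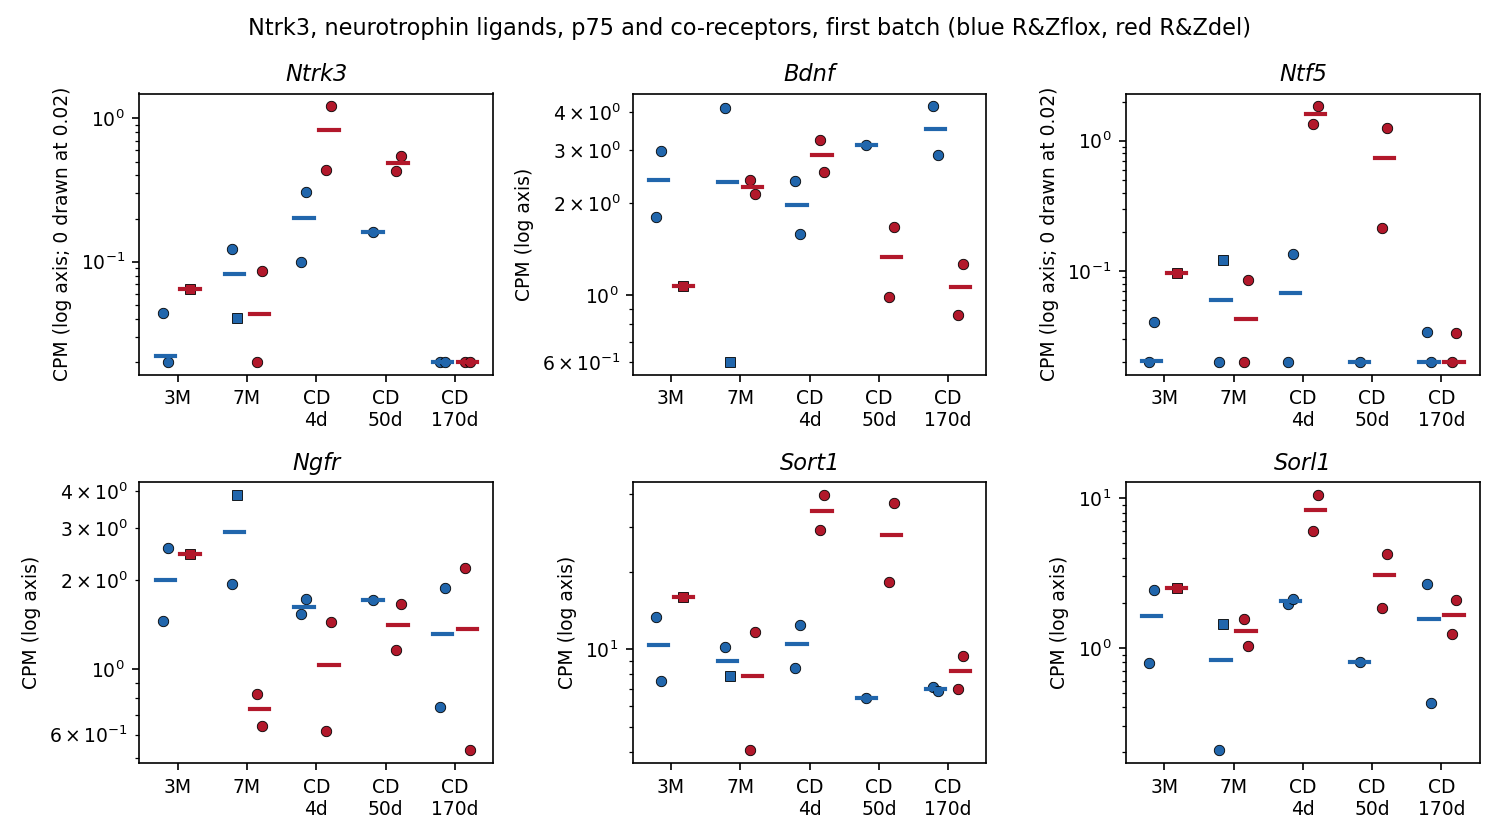
CPM (log axis; for Ntrk3 and Ntf5, 0 is drawn at 0.02) of the receptor Ntrk3, the TrkB ligands Bdnf and Ntf5, the p75 receptor Ngfr and the co-receptors Sort1 and Sorl1 in the 18 first-batch libraries with a group. Blue points are R&Zflox and red points R&Zdel livers, squares are listed females and short lines group means; Sort1 reaches 39.9 CPM in an R&Zdel CD 4d liver and lies at 9.42 CPM or below at CD 170d.

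Of 10 neurotrophin receptors, co-receptors and ligands besides Ntrk2, 4 passed the filter in the CD fits: Ngfr, Sort1, Sorl1 and Bdnf. By edgeR, Sort1 was the 1 of these 4 called at CD 4d and at CD 50d, where 15.2% and 5.58% of all genes were called, while DESeq2 called 2 at each of these times (Sort1 with Sorl1, and Sort1 with Bdnf). None was called by edgeR at CD 170d, where 1 had an unadjusted p under 0.05 by edgeR and 1 was called by DESeq2. In undamaged livers and at PHx 7d none of the 5 tested was called by edgeR, beside 0.436%, 0.226%, 0.451% and 0.274% of all genes at 1M, 3M, 7M and PHx 7d. Their unadjusted p was under 0.05 for 2 genes at 1M, 0 at 3M, 1 at 7M and 0 at PHx 7d, and DESeq2 called 2 at 1M.

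At PHx 21d, where 0.329% of genes were called, Bdnf was called lower. It had no count in the 3 R&Zdel livers and 2.95, 3.22 and 12.8 CPM in the R&Zflox livers, at least 110-fold lower against a floor of 3 counts over the group (adjusted p = 0.0914, edgeR). The call was lost on leaving out any 1 of the 6 livers (adjusted p of 0.127 to 0.263, edgeR). Bdnf was also at 0 in 11 of the 30 second-batch libraries, and in none of the first.

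Genes that pass on or answer Trk signals were counted beside Ntrk2, against 15.2%, 5.58% and 0.625% of all genes called at CD 4d, 50d and 170d. None of the 17 adaptors and effectors of Trk receptors tested was called by edgeR at CD 4d, 50d or 170d, where 1, 3 and 3 had an unadjusted p under 0.05 and DESeq2 called 0, 1 and 0. In undamaged livers and after hepatectomy the single edgeR call among 18 was Plcg1, phospholipase C gamma, at 7M (log2 fold change 1.26 ± 0.31, adjusted p = 0.0893, edgeR; 0.451% of all genes were called), which was lost in 8 of the 10 fits that left out a liver, and DESeq2 called 1 at PHx 21d. Of 9 genes that answer ERK signalling tested in CD livers, the feedback inhibitor Spry1 (2.54) and Fos (1.93) were higher at CD 4d. There 5 of the 9 had an unadjusted p under 0.05 by edgeR, as did 3970 of all 11358 genes. The median log2 fold change of the 9 was 0.87 at CD 4d, beside 0.057 over all genes, 0.080 at CD 50d and -0.31 at CD 170d. Spry4 was lower at CD 50d (-2.76). At CD 170d edgeR called 0 of the 9, DESeq2 2, and 2 had an unadjusted p under 0.05. Egr1, an immediate early gene, was lower at PHx 21d (-3.18), a call that was lost on leaving out any 1 liver (adjusted p of 0.114 to 0.337, edgeR). The Fos call was lost on leaving out any 1 liver, that of Spry1 without R&Zflox CD 4d replicate 1 (adjusted p = 0.146, edgeR) and that of Spry4 without R&Zdel CD 50d replicate 1 (adjusted p = 0.193, edgeR).

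At CD 4d 2 of 8 tested partners of p75 and 2 of 6 proteases that can cut neurotrophin precursors were called, and at CD 50d 1 of each, numbers too small to set apart from the 15.2% and 5.58% of all genes called. Among the partners, Bex3 was higher at CD 4d (2.52) and CD 50d (2.13; adjusted p = 0.181 by edgeR without R&Zdel CD 50d replicate 1) and Arhgdia at CD 4d (1.00). The Arhgdia call was lost without R&Zdel CD 4d replicate 2 (0.82, adjusted p = 0.125, edgeR) or R&Zflox CD 4d replicate 1 (0.90, adjusted p = 0.148, edgeR). Among the proteases, Mmp7 was higher at CD 4d (11.21) and CD 50d (7.11) and Plg, plasminogen, lower at CD 4d (-1.22). The Mmp7 values depend on the few control counts and are no measured folds, and the CD 50d call was lost without either R&Zdel liver (adjusted p of 0.107 and 0.163, edgeR).

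WNT pathway genes were read beside Ntrk2 because the deleted ligases restrain that pathway. Over the 18 libraries, the Pearson correlation of log2(CPM + 1) with Ntrk2 was 0.90 for Tnfrsf19, 0.87 for Axin2, 0.84 for Lgr5 and 0.57 for Glul. Over the 30 second-batch libraries the values were 0.40, 0.49, 0.33 and 0.42. The libraries share genotype groups, so these values describe the genotype difference as well as the livers within a genotype.

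At CD 4d Ntrk2 kept its mutant level while Glul was low in both genotypes. Glul had 61.8 and 55.0 CPM in the R&Zdel CD 4d livers, against 486 to 840 CPM in undamaged R&Zdel livers of the same batch. In R&Zflox it had 20.5 and 53.5 CPM at CD 4d, against 94.4 to 167 CPM in undamaged livers of the batch. Its log2 fold change between the genotypes at CD 4d was 0.17 ± 0.48. The study describes the cells with this enzyme as strongly damaged by CCl4 at that time. Ntrk2 in the R&Zdel CD 4d livers was at 17.7 and 21.3 CPM, within its undamaged mutant range. Axin2, a direct WNT target, had 11.1 and 10.2 CPM there, above its 4.48 to 5.45 CPM in undamaged R&Zdel livers, and the stem cell receptor Lgr5 had 4.76 and 4.99 CPM, below its 7.90 to 19.1 CPM. Of 10 WNT pathway genes, 6 were called higher at CD 4d, 1 at CD 50d and 3 at CD 170d, where 10.3%, 2.64% and 0.414% of all genes were called higher.

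**Figure D4:**
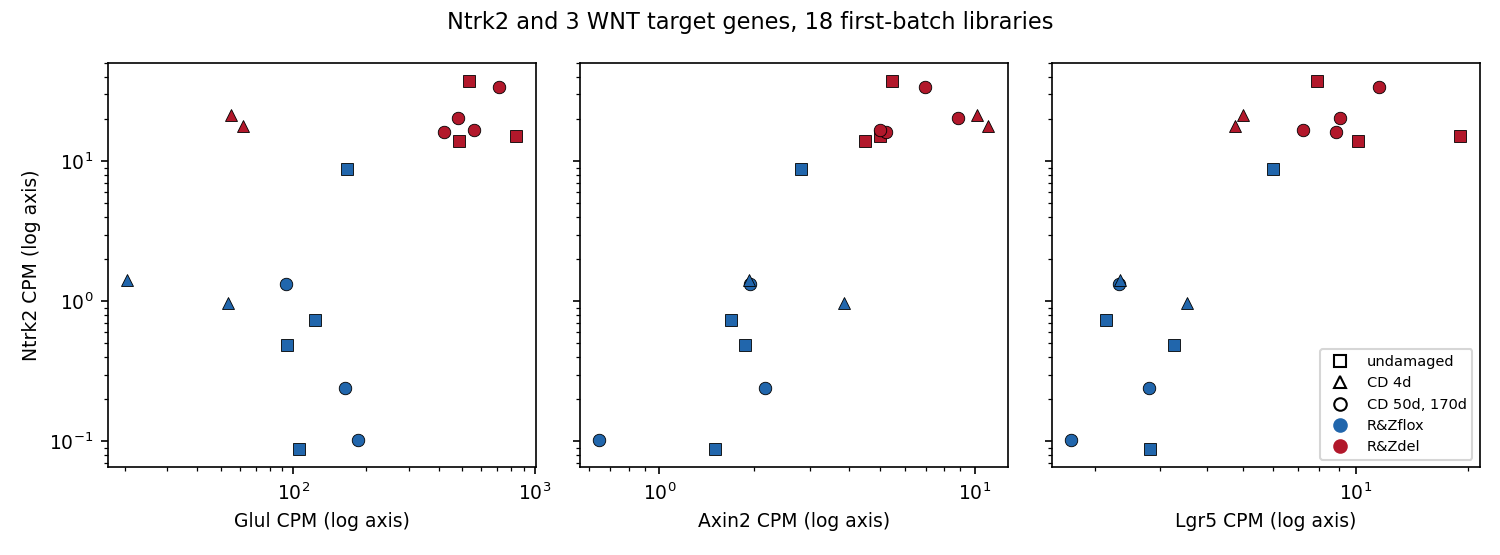
Ntrk2 against Glul, Axin2 and Lgr5 in the 18 first-batch libraries with a group (CPM, both axes log). Red points are R&Zdel and blue points R&Zflox livers, squares are undamaged, triangles CD 4d and circles CD 50d and 170d livers; the red triangles lie at 61.8 and 55.0 CPM of Glul while their Ntrk2, at 17.7 and 21.3 CPM, is that of the other red points.

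The genes most like Ntrk2 across the first-batch livers, of 11657 compared, were the glutathione transferase Gstm2 (r = 0.95), the predicted gene Gm6665 (0.92), the ammonia transporter Rhbg (0.92), the phospholipid transporter Abcb4 (0.91), Psmc3 (0.91), Dyrk3 (0.90), Pold4 (0.90), Psmb1 (0.90), Lect2 (0.90) and Tnfrsf19 (0.90). Their correlation in the second batch, over 30 libraries, ran from -0.015 for Abcb4 to 0.52 for Gstm2 and 0.51 for Lect2. Gstm2 had 312 to 438 CPM in first-batch R&Zdel livers and 43.9 to 89.4 CPM in R&Zflox livers. The first-batch correlations include the CD values for which Ntrk2 was chosen. They describe the genotype difference as well as the livers within a genotype.

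Of the 7 hepatocyte markers, edgeR called Alb alone at CD 50d (log2 fold change -1.62, lower, against 1 control liver). There 5.58% of all genes were called. Alb was also called lower (-1.58 to -1.09) at 1M, 3M, 7M and both PHx times, beside 0.226% to 0.451% of all genes. At CD 4d and CD 170d edgeR called none of the 7, while 2 and 1 had an unadjusted p under 0.05. Markers of some other liver cell types also differed between the genotypes in the early CD livers. The 7 cholangiocyte markers, of biliary and ductular cells, summed to 3521 and 6277 CPM in R&Zdel CD 4d livers and to 87.2 to 158 CPM in R&Zflox, and 5 of 6 tested were called higher, where 10.3% of all genes were. The sums were 584 to 1138 against 100.3 CPM at CD 50d and 245 to 355 against 56.3 to 300 CPM at CD 170d, where none was called by edgeR or DESeq2 and none had an unadjusted p under 0.05. In undamaged first-batch livers they were 58.9 to 149 CPM in R&Zdel and 68.8 to 115 CPM in R&Zflox. Ntrk2 did not overlap between the genotypes in these first-batch groups, but it did in undamaged 1M and 7M livers of the second batch. The part of ductular cells in the Ntrk2 level was not tested.

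The 9 stellate cell and myofibroblast markers summed to 149 to 377 CPM in R&Zdel and 61.5 to 81.6 CPM in R&Zflox livers at CD 4d, where 3 of 8 tested and 10.3% of all genes were called higher. At CD 50d they were 111 to 137 against 56.5 CPM, with Col1a1, a fibrillar collagen gene, called higher (4.24). At CD 170d the sums were 37.6 to 49.2 and 42.0 to 47.7 CPM. The 8 markers of Schwann cells and neurons were near 0 throughout, at 0.995 to 3.55 CPM in R&Zdel and 1.16 to 4.41 CPM in R&Zflox CD livers, with Sox10 and Snap25 at 0 in both genotypes at CD 4d.

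The 7 hepatoblast and oncofetal markers summed to 150.1 to 245 CPM in R&Zdel and 5.96 to 8.63 CPM in R&Zflox livers at CD 4d, and 3 of 4 tested were called higher, Prom1, Cd24a and the fetal serum protein gene Afp. The 7 markers of proliferating cells summed to 168 to 193 CPM against 29.5 to 62.7 CPM, with 3 of 4 called higher. Of all genes, 10.3% were called higher at CD 4d. Of 6 endothelial markers tested, 2 were called lower, Lyve1 (-2.01) and Clec4g (-1.54). Of 7 macrophage markers, 1 was called lower, the receptor Marco (-2.75, and -3.67 to -0.39 on leaving out 1 liver). Of 4 lymphocyte markers, 1 was called higher, the T cell gene Cd3g (1.79). These numbers are too small to set apart from the 15.2% of all genes called either way. At CD 170d no member of these 5 lists was called by edgeR, and DESeq2 called 1 macrophage marker. The part of these cell types in the Ntrk2 level at CD 4d was not tested.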

How the data were processed

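Liver RNA was made into SMARTSEQ2 libraries. The deposited files hold whole-number counts per gene, made by the authors with STAR 2.5.0a on mm10 and featureCounts (1.5.0-p3 and 1.5.0-p1 per the submitters' processing notes), without strand. Trimming is given as Trim Galore in those notes and as Sickle in the study's methods. CPM is counts per 1000000 counted reads of a library. Groups come from the labels, each batch apart; sex and induction from the study's sample list. Of 55 records, 2 were not analysed here and 5 libraries had labels too conflicting to place.

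Counts of the 34490 shared symbols were fitted in edgeR 4.0.16 (R 4.3.3, limma 3.58.1) with TMM factors and quasi-likelihood F tests: CD livers by group (CPM of at least 1 in 6 libraries), undamaged livers of both batches with sex and batch, PHx with 1M livers and sex (CPM above 1 in 3 libraries), and first-batch livers by group for CD 170d against 7M. A call needed a Benjamini-Hochberg adjusted p below 0.1 together with a log2 fold change larger than 1 in size. Alternatives were DESeq2 1.42.0, its size factors, no filter, each library left out, a replicate block, the 2 groups alone, no sex term, batches apart and, after the values were seen, male mice alone and 1 corrected sex. The code was tested on simulated data. No 2 libraries were identical.

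Ntrk2 and the gene lists were chosen with earlier results of these data known. Some members of the lists are not reported here. The text names Ntrk2, other neurotrophin genes, list members that were called (at most 5 per list and comparison, by fold) and the 10 genes most correlated with Ntrk2. Flt4 was named after its value was seen.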

Additional observations from a re-analysis of the deposited data

Results flagged for a closer look

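In the first batch, 5 libraries were placed in no group because their title and characteristics disagree. Their Ntrk2 levels were 10.9, 14.7, 15.1, 58.8 and 59.9 CPM, each above the 8.84 CPM of the highest R&Zflox library of that batch. By title and by characteristics alike, 2 of them are control livers, at 14.7 and 58.8 CPM, and 3 are mutants, at 10.9, 15.1 and 59.9 CPM; what disagrees is the age or the damage. The 2 libraries listed as controls had 771 and 662 CPM of Glul and 6.54 and 6.06 CPM of Axin2. The 3 listed as mutants had 126, 158 and 987 CPM of Glul and 1.66, 1.33 and 9.04 CPM of Axin2. All 5 had Xist at 19.6 to 67.9 CPM and Ddx3y at 0.0873 CPM or below, the pattern of female livers. They entered no comparison.

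In the undamaged 1M livers of the second batch, 5 of 26 sets of values had 1 liver far from the others. The rule compares the gap to the next liver with the range, so it flags any set with all livers but 1 at 0. No rate expected from chance can therefore be set beside this number. Ntf3 was at 5.83 CPM in 1 R&Zdel liver and at 0 in the others. Bdnf was at 0.0371 and Ntrk3 at 0.223 CPM in 1 R&Zdel liver each, with the others at 0. Ntrk3 was at 1.67 CPM in 1 R&Zflox liver with the others at 0, and Sorcs3 at 0.858 CPM in 1 R&Zdel liver with the next at 0.0452 CPM. Ntrk2 itself was not among them.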

How the results depend on the processing

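The Ntrk2 fold change of R&Zdel against R&Zflox stayed positive under every alternative run. Its undamaged 3M value passed the threshold with no filter on low counts (4.50), under DESeq2 (4.46) and with no sex term (5.08). Within R&Zflox, CD 170d against 7M became -0.037 without the 2 libraries with conflicting labels. The cause of these shifts was not tested.

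Leaving out 1 liver at a time gave Ntrk2 log2 fold changes of 3.30 to 3.82 at CD 4d, 6.00 to 6.07 at CD 50d, 4.03 to 7.69 at CD 170d, 1.49 to 3.02 at 1M, 3.80 to 5.69 at 3M, 1.32 to 2.34 at 7M, 1.29 to 3.55 at PHx 7d, 1.76 to 7.25 at PHx 21d, and, for CD 170d against 7M, -0.70 to 0.72 in R&Zdel and -5.20 to -0.038 in R&Zflox. It gave 775 to 1516 genes called at CD 4d, 4 to 671 at CD 50d (4 without R&Zdel replicate 1), 7 to 362 at CD 170d (7 without R&Zdel replicate 2, 362 without R&Zflox replicate 2), 34 to 48 at 1M, 10 to 31 at 3M, 38 to 204 at 7M (204 without second-batch R&Zdel replicate 4), 19 to 57 at PHx 7d, 29 to 74 at PHx 21d and, for CD 170d against 7M, 0 in R&Zdel and 0 to 102 in R&Zflox. Of the neurotrophin genes besides Ntrk2 it called 0 to 1 at CD 4d, CD 50d and CD 170d, 0 at PHx 21d and 0 to 1 in R&Zflox.

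The edgeR counts of genes called were 1727, 634 and 71 (CD 4d, 50d, 170d), 56, 29 and 58 (1M, 3M, 7M), 35 and 42 (PHx 7d, 21d), and 0 in both comparisons of CD 170d with 7M, where 665 (R&Zdel) and 1021 (R&Zflox) genes had an unadjusted p under 0.05. In the same order they were 2956, 1671, 600, 121, 73, 95, 103, 154, 431 and 591 with no filter. DESeq2 called 1044 at CD 50d, 291 at CD 170d, 302, 134 and 92 at 1M, 3M and 7M, 213 and 437 after PHx, and 19 and 85 for CD 170d against 7M. The 2 groups alone gave 2623, 1238 and 0 in CD livers, 0 at 3M, 21 at 7M, 10 and 19 after PHx and 4 in R&Zdel. Male mice alone gave 14, 12 and 38 at 1M, 3M and 7M, the first batch alone 5 at 3M and 14 at 7M, and the second alone 22 at 7M. At PHx 7d, no sex term gave 22, and unadjusted p-values gave 510 there and 838 at PHx 21d.

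Neurotrophin genes called besides Ntrk2 became 4, 3 and 2 (CD 4d, 50d, 170d) with no filter, 3 at CD 4d and 0 at PHx 21d with the 2 groups alone, and 2, 2, 1 and 2 at CD 4d, CD 50d, CD 170d and 1M under DESeq2. At PHx 21d the Bdnf call was lost, leaving 0, with no sex term, with the sex of 1 library corrected and with the replicate block.

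Replicate numbers were not taken to pair the livers, since not every correlation of same-numbered livers was over 0.1 where there were 3 or more pairs. The correlations were 0.33 at CD 4d, -0.36 at CD 170d, -0.072 to -0.039 at 1M, 0.43, -0.29, 0.12 and 0.17 at 7M and -0.065 to -0.0026 after PHx. With a replicate block Ntrk2 was 4.50 at PHx 21d, and 1747 genes were called at CD 4d and 52 at CD 170d. With the numbers crossed at CD 170d, 120 genes and 1 neurotrophin gene were called. At CD 50d and 3M the groups share fewer than 2 numbers, so no block was fitted.

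Ntrk2 levels that rest on few counts, such as the 3 and 6 counts of 2 R&Zflox CD livers, carry wide counting intervals. With 1 or 2 livers per group, the spread is estimated from few libraries.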
